A study of Mus musculus with 60 samples.

Results

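Tubb2a, Ly6d, Cd36, Vnn1 and Osbpl3 are 5 genes linked to fat storage in the liver, taken here by their symbols from 54343 listed in each of 4 expression tables. They were chosen from measured values of these same tables; all 4 liver comparisons are counted as used in that choice, so the liver differences are given as a description without a test. Bulk RNA was sequenced from 2 tissues of diet-induced obese (DIO) mice, the liver and the inguinal white fat depot, in 60 libraries that form 12 groups of 5. In the Glp1r line the groups were Glp1rfl/fl mice given vehicle, Glp1rfl/fl mice given mGIPR-Ab/P1, and Glp1rWnt1-/- mice given vehicle. In the Gipr line they were Giprfl/fl mice given vehicle, Giprfl/fl mice given mGIPR-Ab/P1, and GiprSyn-/- mice given vehicle. mGIPR-Ab/P1, called the conjugate below, joins an antibody against the receptor for the gut hormone GIP to a peptide that acts on the receptor for GLP-1. The knockouts carry the names of Wnt1 and Syn, genes known from neural tissue; the labels describe the drivers no further, and no knockout group received the conjugate. The question of the study, by its title, is the part of these receptors in the central nervous system in the action of the conjugate. All groups come from diet-induced obese mice, but whether their body weights were alike is not known here. Each comparison is made with the floxed mice of that line given vehicle, in 1 tissue. The labels call the replicates biological, give no sex, age, dose or duration, and do not say whether a liver and an adipose library came from the same mouse.

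When a liver takes up or makes more fatty acid than it burns or exports, hepatocytes store triglyceride in lipid droplets. Cd36 is a membrane receptor that helps fatty acids enter cells; it is abundant in adipocytes, low in healthy hepatocytes, and raised by the nuclear receptor Pparg in fatty liver. Vnn1 is a pantetheinase, an enzyme anchored to the cell surface that splits pantetheine from coenzyme A breakdown, and is a known target of the fasting and fatty acid sensor Ppara. Osbpl3 is a relative of the oxysterol-binding protein and works where the endoplasmic reticulum touches the plasma membrane. Ly6d is a small surface protein of the Ly6 family, known from keratinocytes and from early B cells. Tubb2a is a beta-tubulin, a building block of microtubules.

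Reference sequence of the 250 bases before the start was at hand for 3 of the 5 genes, from RefSeq on the GRCm38.p6 build, and is shown as a description. Positions are those of RefSeq, because the labels name no build for the expression values. All 3 lie on the minus strand, upstream of the gene, and are written 5′ to 3′ in the direction of transcription, ending at the base before the start. Capitals mark exact matches, on either strand, to the TATA box TATAAA, to the core read by nuclear receptors such as Pparg and Ppara, which is AGGTCA, to the E-box CACGTG, to the CCAAT box, and to the GC box written as GGGCGG. The Tubb2a window is chr13:34078009-34078258, the Cd36 window is chr5:17835897-17836146, and the Osbpl3 window is chr6:50456171-50456420.
Tubb2a: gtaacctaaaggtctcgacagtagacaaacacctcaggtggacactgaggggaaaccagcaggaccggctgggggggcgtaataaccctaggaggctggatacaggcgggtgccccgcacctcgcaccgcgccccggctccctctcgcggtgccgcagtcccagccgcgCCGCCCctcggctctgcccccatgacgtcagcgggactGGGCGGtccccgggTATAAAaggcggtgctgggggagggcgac
Cd36: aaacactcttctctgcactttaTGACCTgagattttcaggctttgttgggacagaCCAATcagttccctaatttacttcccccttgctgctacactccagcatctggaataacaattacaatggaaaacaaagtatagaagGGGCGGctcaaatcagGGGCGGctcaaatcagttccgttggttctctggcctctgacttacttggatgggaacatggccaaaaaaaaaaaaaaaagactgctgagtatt
Osbpl3: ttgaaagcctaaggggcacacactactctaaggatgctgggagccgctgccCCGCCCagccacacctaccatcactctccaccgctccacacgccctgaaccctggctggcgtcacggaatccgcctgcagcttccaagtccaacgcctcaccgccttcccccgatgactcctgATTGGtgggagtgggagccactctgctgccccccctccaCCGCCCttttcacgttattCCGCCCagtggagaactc
The Tubb2a window held TATAAA from 29 to 24 bases before the start and GGGCGG at 2 places, 1 on each strand. In the Cd36 window there was 1 AGGTCA, on the opposite strand 228 to 223 bases before the start, 1 CCAAT and 2 copies of GGGCGG. Osbpl3 had 1 CCAAT and 3 GGGCGG, all on the opposite strand. Among 32851 windows of the same length, 12.4% held TATAAA, 14.02% AGGTCA, 6.02% CACGTG, 33.9% CCAAT and 32.7% GGGCGG. No window of these genes held CACGTG or a pair of AGGTCA in tandem with 1 base between, which 0.0335% of all windows held. The GC content was 68.4% for Tubb2a, 62.8% for Osbpl3 and 43.2% for Cd36, against a median of 52.4% over all windows. A match describes the letters and is no evidence of binding. The GENCODE reference lists 1 transcript for Tubb2a, 6 for Cd36 and 10 for Osbpl3. Which start these livers used is not known here.

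Values are FPKM, fragment counts scaled to transcript length and library depth. The tables give no counts; the depth estimated from the lowest values in M (1e+06) fragments ranged over 31.8 to 57.2 for the livers and 29.9 to 64.4 for the fat depots. In liver the 8 hepatocyte markers summed to 39281 to 62022 FPKM in every group, and in adipose tissue the 7 adipocyte markers summed to 3283 to 10598 FPKM, as the tissue labels say. In 6 of the 30 adipose libraries the mean log2(FPKM + 1) of 7 B cell markers was above 5, namely in vehicle replicate 2 and Glp1rWnt1-/- replicates 1 and 3 of the Glp1r line, and in conjugate replicate 1 and GiprSyn-/- replicates 1 and 5 of the Gipr line. Adipose changes are therefore also given without these libraries where they bear on a comparison. In the Gipr line that does not even out the B cell signal. Every GiprSyn-/- library summed to at least 103 FPKM of these markers, against a vehicle median of 14.9 and a conjugate median of 130 FPKM. In the Glp1r liver table the conjugate libraries were shallower, at 34.04 ± 1.57 M (SD, n = 5) against 49.9 ± 2.92 M in the vehicle group, with no overlap.

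In liver, all 5 genes had lower means in each of the 4 comparisons with vehicle. The largest difference in log2(FPKM + 1) was that of Tubb2a in 3 of them and of Ly6d in Glp1rWnt1-/-. This scale damps changes of low genes such as Ly6d. By mean FPKM, Ly6d stood at 11.5% of vehicle in Glp1r conjugate and 11.4% in GiprSyn-/- livers, against 20.4% and 12.5% for Tubb2a. In Gipr conjugate livers Ly6d stood at 29.2% and Tubb2a at 18.2%. Over all genes tested, the log2 difference was below 0 for 46.8% in Glp1r conjugate and 67.0% in Glp1rWnt1-/- livers. It was below 0 for 56.4% in Gipr conjugate and 73.8% in GiprSyn-/- livers. Tubb2a measured 55.7, 151, 105, 119 and 129 FPKM in the 5 Glp1rfl/fl vehicle livers. Under the conjugate it measured 8.39, 45.3, 20.1, 16.01 and 24.3 FPKM, and in Glp1rWnt1-/- livers 44.9, 50.9, 72.8, 75.3 and 84.0 FPKM. Every conjugate liver was below every vehicle liver, whereas the knockout range overlapped the lowest vehicle liver. In the Gipr line Tubb2a measured 56.1, 41.0, 120.5, 72.7 and 31.2 FPKM in vehicle livers. It measured 5.40, 7.64, 17.5, 10.4 and 17.7 FPKM under the conjugate and 9.49, 5.76, 7.49, 6.41 and 11.1 FPKM in GiprSyn-/- livers. Both of these groups lay wholly below the vehicle livers, and they overlapped each other. Of all genes tested, 4.02% lay wholly below vehicle in Glp1r conjugate and 1.72% in Glp1rWnt1-/- livers. The share was 3.57% in Gipr conjugate and 10.6% in GiprSyn-/- livers. Nothing is read from such gaps for the 5 genes, which these values chose. On the log2(FPKM + 1) scale the difference of Tubb2a from vehicle was -2.36 ± 0.35 (SE) for the conjugate in the Glp1r line, -2.33 ± 0.35 for the conjugate in the Gipr line, -2.73 ± 0.35 for GiprSyn-/- and -0.73 ± 0.35 for Glp1rWnt1-/-. The close paralog Tubb2b, whose fragments a counting method may share with Tubb2a, averaged at most 0.161 FPKM in any liver group.

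Among the 5 genes Ly6d had the widest scatter in both vehicle groups, with a coefficient of variation of 69.3% and 129.96%. It measured 4.17, 23.0, 6.94, 10.4 and 25.7 FPKM in Glp1rfl/fl vehicle livers, and 0.959, 2.11, 2.31, 1.02 and 1.69 FPKM under the conjugate, again with no overlap. In Glp1rWnt1-/- livers it ran from 0.921 to 15.5 FPKM, with 2.88, 4.90 and 11.8 FPKM between, and so spanned the whole conjugate range and 3 of the 5 vehicle livers. In the Gipr line the vehicle livers measured 4.84, 5.35, 55.7, 13.7 and 5.01 FPKM, of which replicate 3 stood far above the rest. The conjugate livers measured 0.846, 4.38, 8.94, 0.855 and 9.70 FPKM and overlapped them. GiprSyn-/- livers measured 1.77, 2.67, 1.34, 1.34 and 2.49 FPKM, all below the lowest vehicle liver. The differences from vehicle were -2.28 ± 0.54, -1.001 ± 0.54, -1.31 ± 0.63 and -1.98 ± 0.63 for the Glp1r conjugate, Glp1rWnt1-/-, Gipr conjugate and GiprSyn-/- comparisons. The B cell markers summed to 0.678 to 10.2 FPKM and the keratinocyte markers to 1.34 to 2.90 FPKM over all liver groups.

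In both conjugate groups and in GiprSyn-/- the Cd36 values lay apart from vehicle. In Glp1rfl/fl vehicle livers it measured 52.5, 84.0, 66.2, 76.5 and 96.3 FPKM. It measured 30.8, 40.7, 37.5, 29.5 and 35.7 FPKM under the conjugate and 25.9, 41.7, 49.2, 57.3 and 66.9 FPKM in Glp1rWnt1-/- livers. The conjugate livers lay below all vehicle livers, and 3 of the 5 knockout livers did. Gipr-line livers measured 71.6, 59.5, 118, 96.6 and 63.6 FPKM of Cd36 with vehicle. It measured 40.4, 26.0, 33.5, 19.97 and 39.3 FPKM under the conjugate and 17.4, 14.8, 23.2, 17.0 and 24.9 FPKM in GiprSyn-/- livers, both without overlap with vehicle. The group mean under the conjugate was 46.4% of vehicle in the Glp1r line and 38.9% in the Gipr line, and in GiprSyn-/- livers it was 23.8%. The log2 differences were -1.07 ± 0.21, -0.67 ± 0.21, -1.33 ± 0.22 and -1.99 ± 0.22, in the same order of comparisons as for Ly6d.

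**Figure D1:**
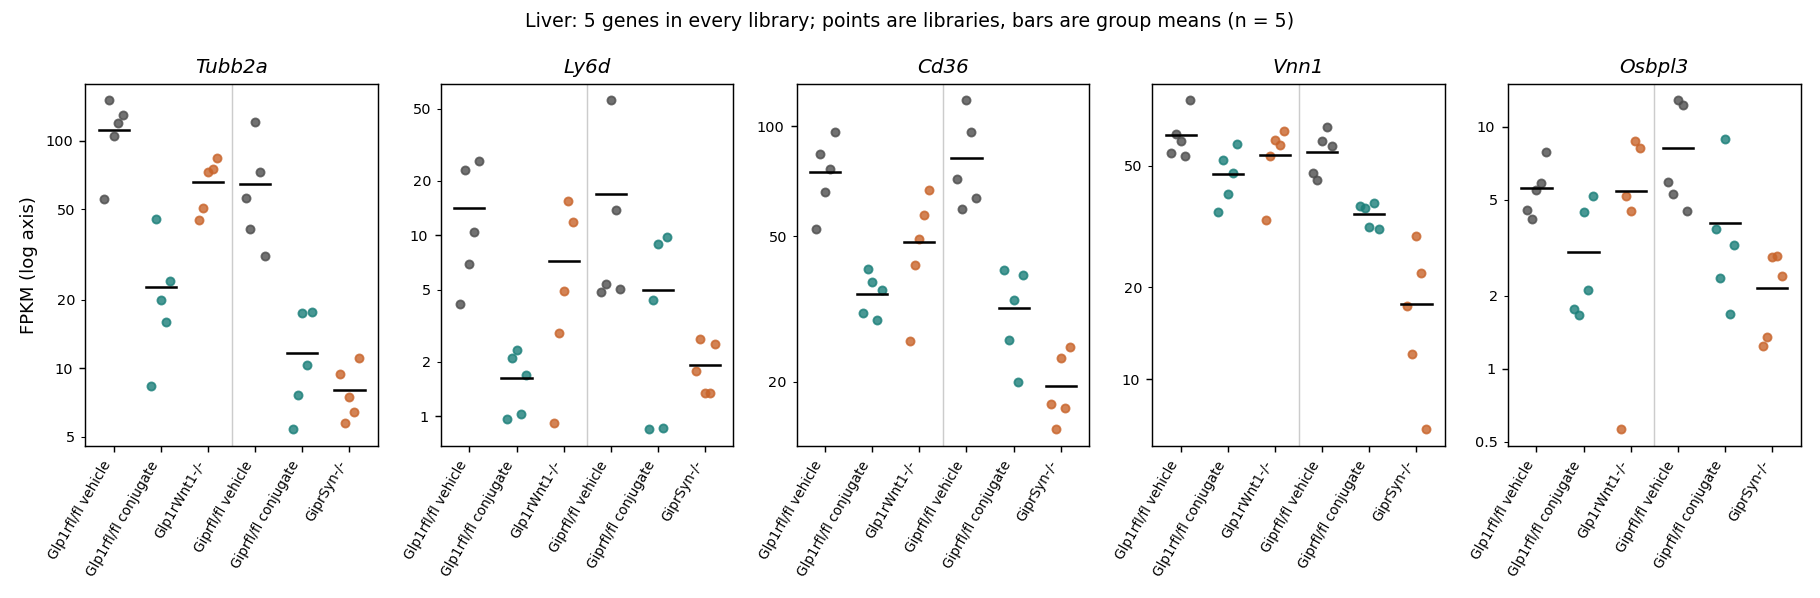
FPKM (log axis) of the 5 genes in each of the 30 liver libraries; points are libraries, bars are means of 5. Dark points are vehicle, teal conjugate and orange knockout; in the Tubb2a and Cd36 panels the conjugate groups of both lines and GiprSyn-/- lie wholly below their vehicle group, while Glp1rWnt1-/- overlaps it.

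Vnn1 was lowest in GiprSyn-/- livers, which all lay below every liver of the other 5 groups. It measured 47.6, 44.8, 60.4, 67.2 and 58.2 FPKM in Giprfl/fl vehicle livers and 36.9, 36.4, 31.6, 37.8 and 31.0 FPKM under the conjugate. In GiprSyn-/- livers it measured 17.4, 12.1, 29.5, 22.3 and 6.84 FPKM. The 3 groups did not overlap, so that Vnn1 was the only one of the 5 genes for which 2 neighbours in the order of the 6 liver means, Gipr conjugate and GiprSyn-/-, were separate. In the Glp1r line Vnn1 measured 55.3, 63.4, 60.5, 53.8 and 82.2 FPKM with vehicle and 35.2, 52.4, 40.5, 47.3 and 58.9 FPKM with the conjugate. Glp1rWnt1-/- livers measured 33.3, 53.8, 60.9, 58.3 and 65.1 FPKM, of which replicate 1 was far below the others. The differences from vehicle were -0.43 ± 0.18 and -0.23 ± 0.18 for the conjugate and knockout of the Glp1r line, and -0.65 ± 0.27 and -1.74 ± 0.27 for those of the Gipr line. Its paralog Vnn3, also a pantetheinase, fell in GiprSyn-/- livers by 0.80 ± 0.11 (SE; limma, adjusted p = 0.000389), from 38.2 ± 2.49 to 21.7 ± 3.83 FPKM (SD, n = 5).

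By mean FPKM, a scale that allows for length, Osbpl3 was the lowest of the 5 in both vehicle liver groups, though in the Gipr line its median of 5.93 FPKM was above the 5.35 FPKM of Ly6d. It measured 4.52, 4.15, 5.501, 5.88 and 7.89 FPKM with vehicle, 1.77, 1.67, 4.43, 2.12 and 5.15 FPKM with the conjugate and 0.563, 5.17, 4.49, 8.74 and 8.19 FPKM in Glp1rWnt1-/- livers. Both groups overlapped vehicle. In the Gipr line it measured 5.93, 5.28, 12.9, 12.3 and 4.47 FPKM with vehicle, 3.79, 2.38, 8.89, 1.69 and 3.25 FPKM with the conjugate, and 1.24, 1.35, 2.90, 2.93 and 2.41 FPKM in GiprSyn-/- livers. The GiprSyn-/- livers alone lay below all vehicle livers. The differences were -0.78 ± 0.41, -0.25 ± 0.41, -0.92 ± 0.34 and -1.46 ± 0.34, in the order given for Ly6d. Without Glp1rWnt1-/- replicate 1, the liver at 0.563 FPKM, the difference in that comparison was 0.20 ± 0.26 in place of -0.25.

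Ranked by mean FPKM over the 6 liver groups, the vehicle groups took the 2 highest places for Ly6d, Cd36, Vnn1 and Osbpl3, and places 1 and 3 for Tubb2a. GiprSyn-/- was lowest for all but Ly6d, whose lowest mean was the Glp1r conjugate group. Except for Vnn1 as stated, the ranges of neighbours in each order overlapped. In bulk tissue fewer cells that express a gene and less RNA per cell cannot be told apart.

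A gene was counted as called at a limma adjusted p under 0.05, over all genes with at least 1 FPKM in at least 5 of the 15 libraries of a table, which all 5 genes had in liver. In the Glp1r conjugate comparison Tubb2a, Ly6d and Cd36 were called lower, where 4.69% of 10858 genes were. In Glp1rWnt1-/- none of the 5 was called, where 0% of 10858 genes were (limma; at an unadjusted p under 0.05 there were 1048 genes). In the Gipr conjugate comparison Tubb2a and Cd36 were called lower, where 3.17% of 11201 genes were. In GiprSyn-/- all but Ly6d were called lower, where 8.92% of 11201 genes were. Since these comparisons chose the genes, nothing is read from the counts. The Ly6d call in the Glp1r conjugate comparison was lost when vehicle replicate 2 was left out (-2.05 ± 0.56) and with no filter on low genes, and that in GiprSyn-/- was gained in 6 of 12 other settings. With estimated depth as a term, none of the 3 was called in the Glp1r conjugate comparison, with differences of -3.13 for Tubb2a, -6.01 for Ly6d and -2.34 for Cd36; depth and treatment did not overlap there and cannot be told apart. The knockout and conjugate comparisons of a line share their vehicle livers and are not independent of each other.

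**Figure D2:**
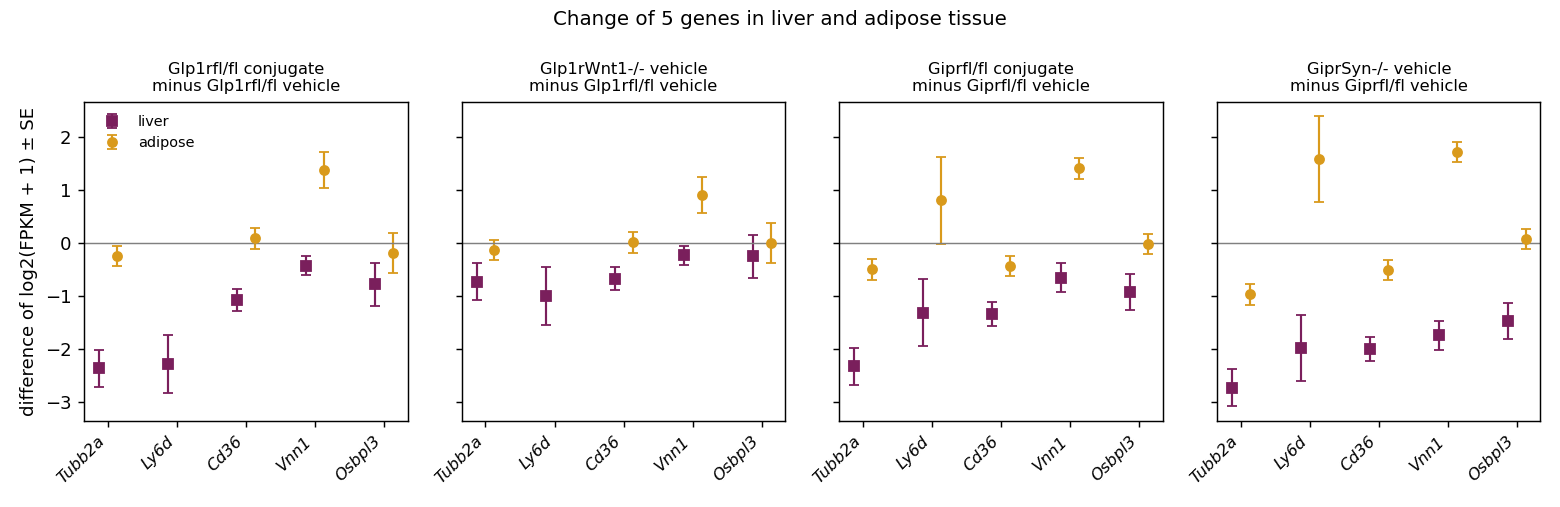
Difference from vehicle in log2(FPKM + 1) with its standard error, for each of the 5 genes in liver (squares) and adipose tissue (circles), in 4 panels for the 2 treatments and 2 knockouts. Every liver point lies below 0, while every adipose point of Vnn1 lies above 0; Ly6d has no adipose point in the Glp1r line, where it missed the minimum level.

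Markers of other cells moved in some of these liver comparisons. Of all genes tested, 4.69% were called lower in the Glp1r conjugate, 3.17% in the Gipr conjugate and 8.92% in the GiprSyn-/- comparison. Erythrocyte markers were called lower for 3 of 5 genes in each conjugate comparison, their summed levels being 475 to 889 FPKM against 1016 to 1522 FPKM with vehicle in the Glp1r line and 406 to 1170 against 993 to 1678 FPKM in the Gipr line. In GiprSyn-/- livers 2 of 4 tested lipid-associated macrophage markers and 2 of 6 stellate and fibroblast markers were called lower. Hepatocyte markers were called higher for 2 of 8 genes in the Gipr conjugate and in the GiprSyn-/- comparison, where 1.17% and 1.44% of all genes were. Pancreas acinar markers ranged from 13.8 to 8150 FPKM in sum over the Gipr-line livers, with group medians of 379.7 FPKM in vehicle, 298 FPKM in conjugate and 47.3 FPKM in GiprSyn-/-; none of the 7 was called, at a median difference of -3.73 in GiprSyn-/-. GiprSyn-/- replicate 5 had a summed macrophage marker level of 753 FPKM against 132 to 153 FPKM in the rest of its group. In that liver Vnn1 was the lowest and Tubb2a and Cd36 the highest of the group. The part of these cells in the changes of the 5 genes was not tested.

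Whether the 5 genes varied together between mice of the same group is a question that the comparisons with vehicle do not use. That such shared variation had no part in the choice of the genes is not known. Each gene's group mean was subtracted in each of the 6 liver groups, and the deviations of the 30 livers were correlated for the 10 pairs, with permutation within groups (100000 resamples, two-sided) and Benjamini-Hochberg adjustment over the 10 pairs. All 10 coefficients were above 0, and 7, from r = 0.39 upward, had an adjusted p under 0.05. Shared variation was common in these livers: of all pairs among 9992 genes 65.2% had an r above 0 and 20.8% an r at least as high as the lowest of those 7, so nothing particular to these genes is read from the count. By gene, that level was reached with 27.9% of all genes for Ly6d, 25.5% for Cd36, 25.1% for Osbpl3, 23.6% for Tubb2a and 3.01% for Vnn1. Ly6d and Tubb2a had Pearson's r = 0.73 (permutation p = 2e-05, adjusted p = 0.0002, n = 30) and Spearman's rho = 0.78 (permutation p = 2e-05, adjusted p = 0.0002), and lay on the same side of their group means in 25 of 30 livers. For Cd36 and Ly6d r was 0.74 (permutation p = 0.00022, adjusted p = 0.000675) and rho 0.69 (permutation p = 0.00062, adjusted p = 0.00155). For Cd36 and Osbpl3 r was 0.74 (permutation p = 9e-05, adjusted p = 0.00045) and rho 0.68 (permutation p = 0.00023, adjusted p = 0.000767). For Cd36 and Tubb2a r was 0.63 (permutation p = 0.00027, adjusted p = 0.000675) and rho 0.70 (permutation p = 0.00015, adjusted p = 0.00075), with the same side in 27 of 30 livers. Without the 2 livers farthest from the median of the first gene in alphabetical order these 4 coefficients were 0.67, 0.67, 0.62 and 0.67. The remaining pairs among these 4 genes were Ly6d with Osbpl3, r = 0.64 (permutation p = 0.00068, adjusted p = 0.00136) and rho = 0.59 (permutation p = 0.00279, adjusted p = 0.00558), and Osbpl3 with Tubb2a, r = 0.44 (permutation p = 0.0201, adjusted p = 0.0336) and rho = 0.45 (permutation p = 0.0268, adjusted p = 0.0401). Without the 2 farthest livers they were 0.54 and 0.37.

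Vnn1 ran less closely with the other 4 genes by value; whether its coefficients differ from theirs was not tested. Over 30 livers its r was 0.39 with Osbpl3 (permutation p = 0.0252, adjusted p = 0.036) and rho 0.40 (permutation p = 0.0343, adjusted p = 0.0429). With Cd36 r was 0.30 (permutation p = 0.11, adjusted p = 0.138) and rho 0.42 (permutation p = 0.0281, adjusted p = 0.0401). With Ly6d r was 0.18 (permutation p = 0.215, adjusted p = 0.239) and rho 0.27 (permutation p = 0.126, adjusted p = 0.126), and with Tubb2a r was 0.17 (permutation p = 0.283, adjusted p = 0.283) and rho 0.32 (permutation p = 0.0862, adjusted p = 0.0957). Without the 2 farthest livers these 4 were 0.32, 0.22, 0.05 and 0.07. Within the Glp1r line alone (15 livers) the 4 coefficients of Vnn1 were 0.65 to 0.78, and within the Gipr line they were -0.14 to 0.16; the difference between the lines was not tested. The 6 pairs without Vnn1 were 0.33 to 0.94 in the Glp1r line and 0.55 to 0.80 in the Gipr line.

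**Figure D3:**
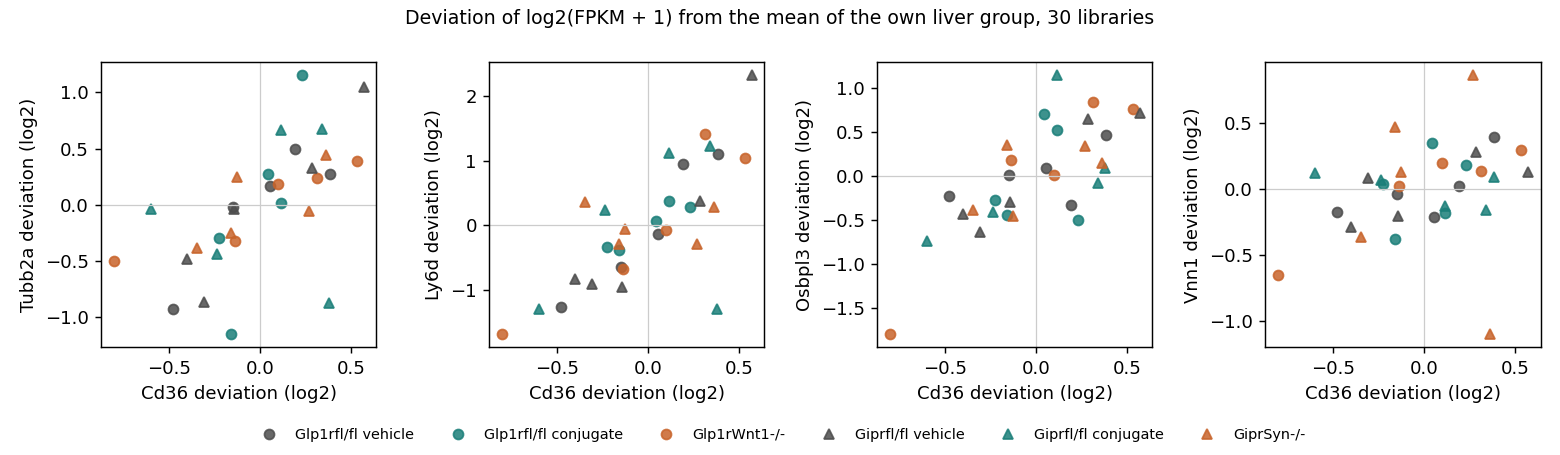
Deviation of each liver from the mean of its own group in log2(FPKM + 1), Cd36 on the horizontal axis against Tubb2a, Ly6d, Osbpl3 and Vnn1 on the vertical axes; circles are the Glp1r line, triangles the Gipr line. Tubb2a, Ly6d and Osbpl3 run with Cd36 (r = 0.63, 0.74 and 0.74), whereas Vnn1 scatters more (r = 0.30).

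Marker scores of other cells also correlated with these deviations. The score of 6 lipid-associated macrophage markers had an r within groups of 0.82 with Osbpl3, 0.81 with Ly6d, 0.75 with Cd36, 0.62 with Tubb2a and 0.22 with Vnn1, over 30 livers. The score of 6 stellate and fibroblast markers had 0.81, 0.80, 0.75, 0.54 and 0.09 in the same order. None of these 12 markers was at 0 in any liver. The summed lipid-associated macrophage list was 43.9 to 97.0 FPKM in vehicle, 19.3 to 48.4 in conjugate and 19.3 to 71.3 in Glp1rWnt1-/- livers of the Glp1r line, and 38.4 to 103.7, 28.2 to 47.7 and 26.7 to 31.3 FPKM in vehicle, conjugate and GiprSyn-/- livers of the Gipr line. The summed stellate list was 74.7 to 117, 61.3 to 110.0 and 52.0 to 126 FPKM, and 112 to 177, 101 to 139 and 97.6 to 135 FPKM, for the same groups. The hepatocyte score ran the other way, with r of -0.63 for Cd36, -0.59 for Vnn1, -0.52 for Osbpl3, -0.44 for Ly6d and -0.20 for Tubb2a. With the platelet score r was 0.63 for Ly6d and for Cd36, with the B cell score 0.57 for Ly6d, and with the pancreas acinar score -0.54 for Cd36. The endothelial score had 0.60 with Ly6d and 0.53 with Osbpl3, the adipocyte score 0.52 with Osbpl3, and the macrophage score 0.52 with Ly6d. With Vnn1 the endothelial and macrophage scores had -0.27 and -0.40. Further scores are not listed. The part of these cells in the shared variation was not tested.

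Likeness to each of the 5 genes was ranked over 9992 genes that pass the minimum level in both liver tables, by Pearson's r of log2(FPKM + 1) over the 30 livers, as a description. Tubb2a was most like Apoa4, an apolipoprotein (r = 0.93), Lgals1, a galectin (0.93), and Cd81, a tetraspanin (0.93). Ly6d was most like Anxa2, a membrane-binding annexin (0.91), Nudt18 (0.90) and Uap1l1 (0.89). Cd36 was most like Slc22a27, an anion transporter (0.95), Enc1 (0.95) and Suclg2, a subunit of succinyl-CoA ligase (0.95). For Vnn1 the 3 were Serpina7, the thyroxine-binding globulin (0.91), Slc25a20, the mitochondrial carnitine carrier (0.90), and Perp (0.90). For Osbpl3 they were Tead1, a transcription factor (0.89), Tnfrsf19 (0.89) and Cgref1 (0.89). These values include the differences between groups. Lgals1 averaged 100.1 ± 20.8 FPKM (SD, n = 5) in Glp1rfl/fl vehicle, 37.7 ± 9.23 FPKM in Glp1rfl/fl conjugate and 78.2 ± 30.4 FPKM in Glp1rWnt1-/- livers. In the Gipr line it averaged 99.8 ± 36.9, 25.2 ± 8.05 and 21.9 ± 6.77 FPKM in vehicle, conjugate and GiprSyn-/- livers.

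After subtraction of the group means the lists changed. Tubb2a was then most like Capn2, a calpain (0.84), Pgd, an enzyme of the pentose phosphate pathway (0.83), and Fasn, the fatty acid synthase (0.82). Cd36 was most like Lgals1 (0.91), Pigp (0.89) and Ifi27l2b (0.89), and Ly6d like Uap1l1 (0.88), Ifi27l2b (0.88) and Lamp1, a lysosomal membrane protein (0.87). Osbpl3 was most like Cgref1 (0.89), Ttc3 (0.89) and Tead1 (0.88). Vnn1 was most like Clstn3 (0.82), Aldh3a2, a fatty aldehyde dehydrogenase (0.82), and Paqr9 (0.80). Among the 9992 genes Ly6d ranked 45 for likeness to Tubb2a within groups and Osbpl3 ranked 114 for likeness to Cd36. Cd36 ranked 253 and Osbpl3 1732 for Tubb2a, Cd36 ranked 67 and Tubb2a 1925 for Osbpl3, while Vnn1 ranked 3645 for Cd36 and 5708 for Tubb2a.

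The pathways around Cd36 and Vnn1 were followed in lists that hold none of the 5 genes, chosen with earlier results of these data known. Of 19 tested genes of lipid droplets and Pparg, 6 fell and 1 rose in the Glp1r conjugate livers. In the Gipr conjugate livers 4 fell, in GiprSyn-/- livers 14 fell, and in Glp1rWnt1-/- none passed. Of all genes tested, 4.69% fell and 5.68% rose in Glp1r conjugate livers, and 3.17% fell and 1.17% rose in Gipr conjugate livers. In GiprSyn-/- livers 8.92% fell and 1.44% rose. These shares apply to the liver lists below as well. Median-of-ratios scaling moved the median of all genes in GiprSyn-/- livers from -0.11 to 0.01 and gave 8 of the 19 lower there. Neither it nor rescaling to a common sum of FPKM kept a rise in the Glp1r conjugate livers. The median log2 change of the 19 was -0.39, -0.60, -1.03 and -0.15, beside 0.01, -0.03, -0.11 and -0.04 over all genes tested. Cidec, which enlarges lipid droplets, fell by 2.07 ± 0.62 (SE; limma, adjusted p = 0.0448) under the conjugate in the Glp1r line, by 2.65 ± 0.46 (adjusted p = 0.00689) in the Gipr line, and by 3.32 ± 0.46 (adjusted p = 0.000386) in GiprSyn-/- livers. Mogat1, an enzyme of diacylglycerol synthesis, fell from 5.68 ± 2.42 to 0.911 ± 0.536 FPKM (SD, n = 5) under the conjugate in the Gipr line (limma, adjusted p = 0.00238).

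Among 25 tested genes of the Ppara programme, which is known to include Vnn1, 20 fell in GiprSyn-/- livers and none rose (median -0.62). With median-of-ratios scaling 13 of them fell (median -0.47). Of all genes tested as deposited, 8.92% fell in GiprSyn-/- livers. In the Glp1r conjugate livers 4 fell and 1 rose (median -0.13), in the Gipr conjugate livers 3 fell (median -0.24; 1 with median-of-ratios scaling), and in Glp1rWnt1-/- none passed (median -0.15). Cyp4a14, a fatty acid omega-hydroxylase, fell by 5.42 ± 0.43 in GiprSyn-/- livers (limma, adjusted p = 6.05e-06). Acot3, a peroxisomal acyl-CoA thioesterase, fell by 3.60 ± 0.40 there (adjusted p = 0.000105). In the Glp1r conjugate livers Pdk4, a brake on glucose oxidation, fell by 1.08 ± 0.17 (limma, adjusted p = 0.00419), from 2.98 to 0.859 FPKM. Acot1 rose there by 0.62 ± 0.19 (limma, adjusted p = 0.0449), where rescaling to a common sum left no gene of the list higher. Of 16 genes of coenzyme A and pantothenate turnover, the pathway of Vnn1, 8 fell and 1 rose in GiprSyn-/- livers (2 and 1 with median-of-ratios scaling), 1 rose in Glp1r conjugate livers and none passed in the other 2 comparisons, where median-of-ratios scaling gave 1 higher under the Gipr conjugate. Their medians were -0.005, -0.09, -0.07 and -0.29 in Glp1r conjugate, Glp1rWnt1-/-, Gipr conjugate and GiprSyn-/- livers, beside 0.01, -0.04, -0.03 and -0.11 over all genes. Vnn3 belongs to this list and to the Ppara list, and its fall in GiprSyn-/- livers is counted in both. Slc5a6, which carries pantothenate into cells, fell by 0.76 ± 0.11 in GiprSyn-/- livers (adjusted p = 0.000429), while Nudt7, which splits coenzyme A in peroxisomes, rose by 0.82 ± 0.12 (adjusted p = 0.0005).

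Of 20 genes of fatty acid uptake and lipoprotein receptors, the company of Cd36, 3 fell and 2 rose in Glp1r conjugate livers. In GiprSyn-/- livers 7 fell, and none passed in the other 2 comparisons. Of all genes tested, 4.69% fell and 5.68% rose in Glp1r conjugate livers, 3.17% fell in Gipr conjugate livers and 8.92% fell in GiprSyn-/- livers. Vldlr, the very-low-density lipoprotein receptor, fell by 1.02 ± 0.09 in GiprSyn-/- livers (limma, adjusted p = 1.97e-05), from 2.03 to 0.507 FPKM. Fabp2, a fatty acid-binding protein, fell there by 1.06 ± 0.16 (limma, adjusted p = 0.000655), from 184 to 88.0 FPKM. The log2(FPKM + 1) scale damps the change of a low gene such as Vldlr. The medians of the list were -0.11, -0.04, -0.06 and -0.09 in Glp1r conjugate, Glp1rWnt1-/-, Gipr conjugate and GiprSyn-/- livers, beside 0.01, -0.04, -0.03 and -0.11 over all genes. Of 14 other genes of tubulins and tubulin folding tested, Tuba1c alone was called in the FPKM as deposited, lower by 0.42 ± 0.12 in Glp1r conjugate livers (adjusted p = 0.0417) and by 0.80 ± 0.19 in Gipr conjugate livers (adjusted p = 0.0305). With median-of-ratios scaling 3 of the 14 were lower in Glp1r conjugate livers. Of the Ly6 family only 4 genes were tested in the Glp1r and 5 in the Gipr table, and Gpihbp1, which holds lipoprotein lipase on endothelium, was the 1 call, higher by 0.34 ± 0.10 in Glp1r conjugate livers (adjusted p = 0.0428), a call lost with FPKM rescaled to a common sum, which gave 1 lower in GiprSyn-/-. None of 10 tested genes of the oxysterol-binding protein family and its partners was called in any liver comparison, but with that rescaling 3 of them were lower in GiprSyn-/- livers. Over the 4 comparisons (Glp1r conjugate, Glp1rWnt1-/-, Gipr conjugate, GiprSyn-/-) the medians were -0.13, -0.04, -0.16 and -0.21 for the tubulin list, -0.07, -0.06, -0.16 and -0.32 for the Ly6 list, and -0.01, -0.03, -0.03 and -0.16 for the oxysterol-binding list.

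In adipose tissue only Tubb2a had a lower mean than vehicle in all 4 comparisons, as all 5 genes had in liver. In vehicle groups Cd36 was 25.6 and 23.7 times its liver mean in the Glp1r and Gipr line, while Vnn1 in liver was 16.3 and 17.4 times its adipose mean. The rule that chose the genes points to the liver and takes fat as a reference, without saying which values it used. The adipose comparisons were therefore tested, over all genes of a table and in either direction, but that fat had no part in the choice is not known. Vnn1, lower in liver, was higher in adipose tissue. Gipr-line fat held 3.03, 2.31, 4.25, 3.51 and 2.89 FPKM of Vnn1 with vehicle and 10.6, 6.08, 9.69, 15.2 and 10.6 FPKM with the conjugate. In GiprSyn-/- fat it measured 11.6, 17.3, 11.3, 13.8 and 10.4 FPKM. Neither range overlapped vehicle, and 7.51% and 6.24% of all genes tested were likewise wholly higher in these 2 comparisons. Vnn1 rose by 1.41 ± 0.19 under the conjugate (limma, adjusted p = 0.00123, 5 of 5 libraries above all vehicle libraries), where 7.02% of 13604 genes were called. It rose by 1.72 ± 0.19 in GiprSyn-/- (limma, adjusted p = 0.000367, again 5 of 5), where 12.3% of 13604 genes were called. Without the libraries rich in B cell markers the changes were 1.396 ± 0.21 (adjusted p = 0.00639) and 1.85 ± 0.23 (adjusted p = 0.0039). That step does not even out B cells, since all GiprSyn-/- libraries held at least 103 FPKM of their markers against a vehicle median of 14.9 FPKM. Markers of other cells differed in the same comparisons. Of all genes tested, 4.26% were called higher and 2.76% lower under the Gipr conjugate, and 6.61% higher and 5.67% lower in GiprSyn-/-. Of 5 tested neuron and Schwann markers 4 were called higher under the Gipr conjugate and 3 in GiprSyn-/-, with sums of 82.2 to 194 and 100.5 to 197 FPKM against 47.1 to 87.2 FPKM with vehicle. Of 6 lipid-associated macrophage markers none was called under the conjugate and 4 were lower in GiprSyn-/-, at 79.3 to 135 against 177 to 329 FPKM. Of 4 tested stellate and fibroblast markers 1 was higher and 1 lower under the conjugate, and 2 were lower in GiprSyn-/-. The 6 tested keratinocyte markers had medians of -1.99 and -1.93, none called. Of 7 B cell markers none was called under the conjugate and 6 were higher in GiprSyn-/-. Their sums were 24.3 to 632 and 103 to 722 FPKM against 8.98 to 208 FPKM with vehicle. The part of these cells in the adipose changes of Vnn1 and Tubb2a was not tested.

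In the Glp1r line Vnn1 measured 4.53, 1.15, 4.29, 4.69 and 4.65 FPKM in vehicle fat, of which replicate 2, rich in B cell markers, was far below the others. It measured 14.5, 7.24, 10.6, 19.7 and 7.06 FPKM under the conjugate and 4.96, 8.63, 4.85, 12.05 and 9.92 FPKM in Glp1rWnt1-/- fat. Both ranges lay above all vehicle libraries, the knockout range by a narrow gap, as 3.20% and 0.434% of all genes tested did in these comparisons. The change under the conjugate was 1.38 ± 0.34 (limma, adjusted p = 0.0396), where 3.39% of 12686 genes were called. That call was lost in 6 of 12 other settings and when any 1 of 7 libraries was left out, conjugate replicates 1, 3 and 4 and vehicle replicates 1, 3, 4 and 5, with adjusted p of 0.0501 to 0.111. Without vehicle replicate 2 the change was 1.11 ± 0.29 (adjusted p = 0.0332), and without all libraries rich in B cell markers 1.11 ± 0.24 (adjusted p = 0.0132). In Glp1rWnt1-/- fat the difference was 0.91 ± 0.34 (limma, adjusted p = 0.983), where 0% of 12686 genes were called (593 at an unadjusted p under 0.05). With array weights it was called (limma, adjusted p = 0.0268), where 732 of 12686 genes were called. The difference of the conjugate's effect on Vnn1 between the lines was 0.03 ± 0.40 (limma interaction, adjusted p = 0.986), and 0% of 14156 genes were called in that test, with 554 at an unadjusted p under 0.05. For the other 4 genes the adjusted p of that difference was 0.887 to 0.932. Vnn3 rose in Gipr conjugate fat by 0.64 ± 0.16 (limma, adjusted p = 0.0316) and in GiprSyn-/- fat by 0.54 ± 0.16 (adjusted p = 0.0427); in Glp1r conjugate fat its change was 0.69 ± 0.22 (adjusted p = 0.0999).

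**Figure D4:**
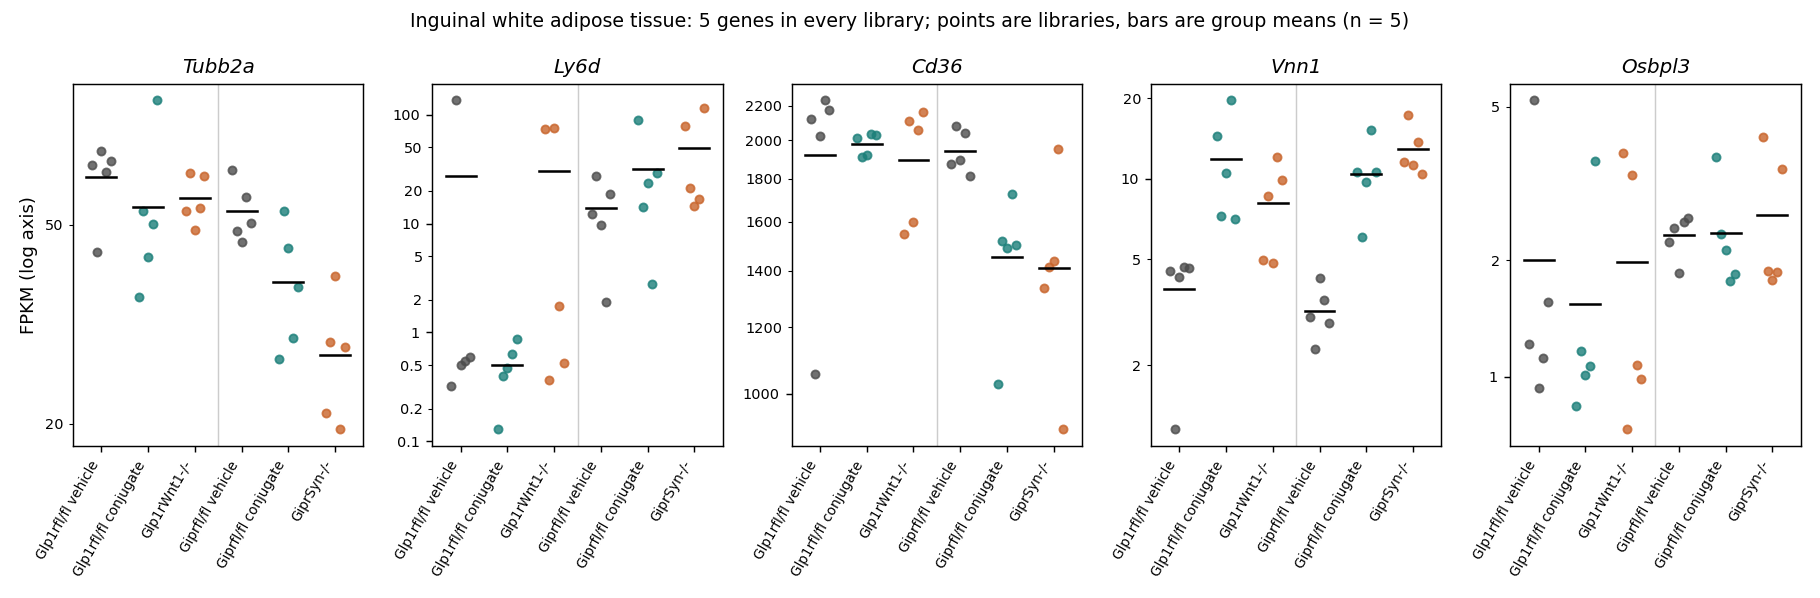
FPKM (log axis) of the 5 genes in each of the 30 adipose libraries; points are libraries, bars are means of 5. In the Vnn1 panel every conjugate and knockout library lies above all vehicle libraries of its line, and the vehicle library at 1.15 FPKM in the Glp1r line is replicate 2.

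Tubb2a in adipose tissue of the Gipr line measured 64.4, 48.6, 46.3, 56.9 and 50.4 FPKM with vehicle, 26.9, 53.4, 44.9, 29.7 and 37.6 FPKM with the conjugate and 21.0, 29.1, 39.5, 19.5 and 28.5 FPKM in GiprSyn-/-. Only the knockout range lay wholly below vehicle, as 4.73% of all genes tested did. Tubb2a fell by 0.96 ± 0.20 in GiprSyn-/- (limma, adjusted p = 0.00928), and without the libraries rich in B cell markers by 0.88 ± 0.22 (adjusted p = 0.037). Its change under the conjugate was -0.49 ± 0.20 (adjusted p = 0.15). In the Glp1r line it was 44.1 to 70.1 FPKM with vehicle, 35.8 to 88.8 with the conjugate and 48.9 to 63.6 in Glp1rWnt1-/- fat, with changes of -0.24 ± 0.20 and -0.13 ± 0.20 that did not pass. With array weights the conjugate difference there was -0.53 ± 0.11 (limma, adjusted p = 0.00129), where 5556 of 12686 genes were called. Of 17 genes of tubulins and tubulin folding tested in GiprSyn-/- fat, 4 fell and none rose, where 5.67% of all genes fell. The median of the 17 was -0.26, beside 0.09 over all genes, and with median-of-ratios scaling 6 of them fell.

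Cd36 in Gipr-line fat measured 1874, 2081, 1895, 2043 and 1816 FPKM with vehicle, 1027, 1519, 1491, 1729.6 and 1501 FPKM with the conjugate and 1336, 1416, 1440.0, 1951 and 907 FPKM in GiprSyn-/-. All conjugate libraries lay below vehicle, as for 4.06% of all genes tested, and so did all GiprSyn-/- libraries but replicate 4. Neither change passed, at -0.44 ± 0.19 (limma, adjusted p = 0.165) and -0.50 ± 0.19 (adjusted p = 0.0877). Without GiprSyn-/- replicate 4 the latter was -0.63 ± 0.17 (adjusted p = 0.0306), and without the libraries rich in B cell markers -0.29 ± 0.13 (adjusted p = 0.227). With array weights both passed (limma, adjusted p = 0.02 and 0.019), where 3618 and 3723 of 13604 genes were called. In the Glp1r line Cd36 was 2011, 1912, 1923, 2033 and 2032 FPKM with the conjugate, against 1056 FPKM in vehicle replicate 2 and 2024 to 2233 FPKM in the other 4 vehicle libraries, and 1547 to 2160.3 FPKM in Glp1rWnt1-/-. The changes were 0.09 ± 0.20 and 0.01 ± 0.20. Without vehicle replicate 2 they were -0.11 ± 0.13 (limma, adjusted p = 0.598) and -0.19 ± 0.13 (adjusted p = 0.359).

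Osbpl3 was low in fat, between 0.73 and 5.20 FPKM, and none of its 4 changes passed, from -0.18 ± 0.38 in Glp1r conjugate to 0.08 ± 0.19 in GiprSyn-/- fat. Without the libraries rich in B cell markers the changes were 0.12 ± 0.23 (limma, adjusted p = 0.734) and -0.22 ± 0.11 (adjusted p = 0.249), of the opposite sign. In Glp1rWnt1-/- the change of 0.01 ± 0.38 also turned, to -0.19 ± 0.26 (adjusted p = 0.798), and under the Gipr conjugate it was -0.14 ± 0.10 (adjusted p = 0.421). Its 7 highest libraries, at 3.33 to 5.20 FPKM, were the 6 rich in B cell markers and the Glp1r conjugate replicate 5, at 3.62 FPKM. That replicate had a B cell score of 1.10 and a summed lipid-associated macrophage level of 1832 FPKM, against a median of 210.3 FPKM in its group. The part of these cells in the level of Osbpl3 was not tested.

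Ly6d spanned 0.129 to 136 FPKM in fat. It measured 73.0 and 74.9 FPKM in Glp1rWnt1-/- replicates 1 and 3, 78.1 and 114 FPKM in GiprSyn-/- replicates 1 and 5, 88.4 FPKM in Gipr conjugate replicate 1 and 136 FPKM in Glp1r vehicle replicate 2. These 6 are the libraries rich in B cell markers, whose 7 genes summed to 2.34 to 868 FPKM in the Glp1r line and 8.98 to 722 FPKM in the Gipr line, none at 0. Every other Glp1r library had 0.129 to 1.74 FPKM of Ly6d, so that it missed the minimum level in that table and was not tested. The remaining Gipr-line libraries had 1.90 to 29.0 FPKM. Vehicle replicates 1, 3 and 5 of that line, at 12.4, 9.78 and 18.5 FPKM, had little B cell signal but the largest summed keratinocyte levels of the vehicle group, 213, 70.9 and 139 FPKM against 9.87 and 8.37 FPKM. The changes of Ly6d from vehicle were 0.81 ± 0.81 (limma, adjusted p = 0.551) under the Gipr conjugate and 1.58 ± 0.81 (adjusted p = 0.195) in GiprSyn-/-, and without the B cell-rich libraries 0.28 ± 0.66 (adjusted p = 0.837) and 0.63 ± 0.72 (adjusted p = 0.679). In GiprSyn-/- fat 6 of the 7 B cell markers were called higher, where 6.61% of all genes were. The part of B cells in the level of Ly6d was not tested.

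**Figure D5:**
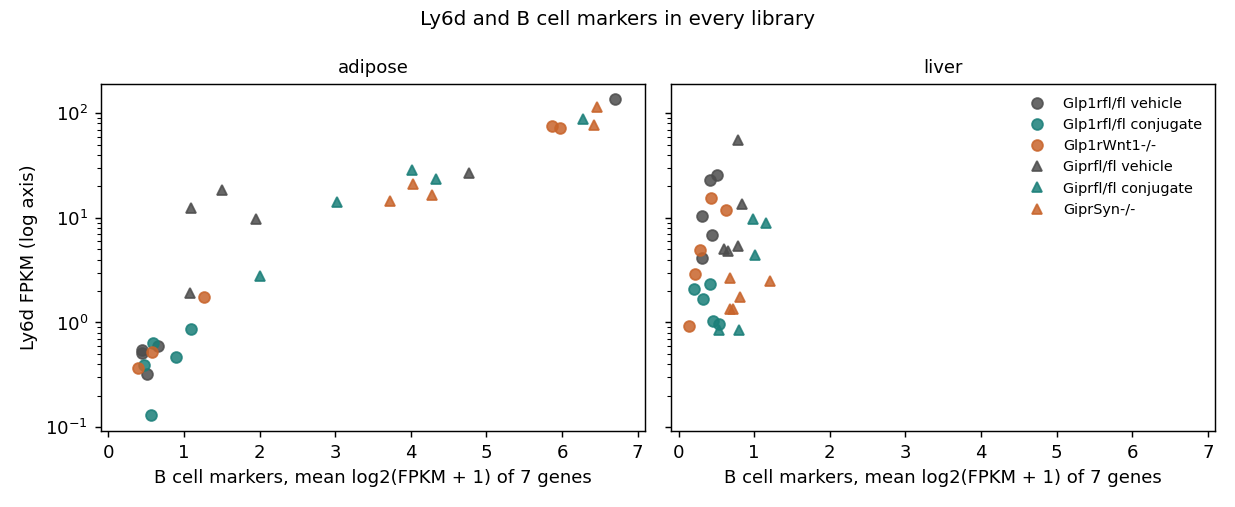
Ly6d FPKM (log axis) against the mean log2(FPKM + 1) of 7 B cell markers, in adipose tissue (left) and liver (right); each point is a library. In adipose tissue the 6 libraries with a marker mean above 5 hold 73.0 to 136 FPKM of Ly6d, while in liver Ly6d runs from 0.846 to 55.7 FPKM and the 7 markers sum to at most 10.2 FPKM.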

How the data were processed

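Stranded poly(A) libraries were made with a TruSeq kit and sequenced on a NovaSeq X, per the labels' protocols. The deposited values are FPKM, computed by the authors with RSEM per the submitters' processing notes; the version, aligner, build and gene models were not given in the sources used here. FPKM hold no counts, so depth was estimated from the lowest values, with the lengths of 6496 single-transcript genes of the GENCODE reference, and no counting interval was derived. RSEM shares fragments between similar genes, which can blur paralogs such as Vnn1 and Vnn3.

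For tests, limma 3.58.1 (R 4.3.3) took log2(FPKM + 1) of the 3 groups of a table in 1 model with a mean-variance trend, over genes with at least 1 FPKM in at least 5 of 15 libraries, with two-sided Benjamini-Hochberg adjusted p under 0.05. Fold changes on this scale are damped for low genes. The fit was tested on simulated data. Correlations used Python 3.11.15, numpy 2.4.6 and pandas 2.3.3. The genes, lists and rules were chosen with earlier results of these data known. Named genes are the 5, their paralogs, the 3 most like each, and up to 3 called genes with the largest change per list and liver comparison. Correlations between the deviations of same-numbered replicates were of mixed sign in every comparison (-0.84 to 0.57), so the replicate number was not taken as a pairing. Whether it is one was not tested. Alternatives covered the pseudocount, filters, scalings, a replicate block, the groups fitted, weights, depth, the library number series, B cell-rich libraries and each library left out. Some Gipr-line libraries carry a higher series of library numbers, which the labels do not explain. In liver these are conjugate replicates 4 and 5 and vehicle replicate 5, with no GiprSyn-/- library. In fat they are conjugate replicate 5 and GiprSyn-/- replicate 5, with no vehicle library. These 2 were the deepest in fat by estimate, at 56.6 and 64.4 M.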

Additional observations from a re-analysis of the deposited data

Results flagged for a closer look

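In 8 of the 60 sets of 5 libraries (5 genes in 12 groups) the highest or lowest value stood far from the other 4, by a gap of more than 0.71 of the range in log2(FPKM + 1); chance gives about 1 in 20. In Glp1r-line vehicle fat, replicate 2 did so for all 5 genes, with Vnn1 at 1.15 FPKM (the others 4.29 to 4.69), Cd36 at 1056 FPKM (2024 to 2233), Tubb2a at 44.1 FPKM (63.9 to 70.1), Ly6d at 136 FPKM (0.32 to 0.594) and Osbpl3 at 5.20 FPKM (0.935 to 1.56). That library had the highest B cell score of the 30 in fat, 6.70. In Gipr conjugate fat, Cd36 in replicate 1 was 1027 FPKM against 1491 to 1729.6 FPKM. In Glp1r conjugate fat, Osbpl3 in replicate 5 was 3.62 FPKM against 0.838 to 1.16 FPKM. In Glp1rWnt1-/- liver, Vnn1 in replicate 1 was 33.3 FPKM against 53.8 to 65.1 FPKM.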

How the results depend on the processing

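Among single changes of the 5 genes, none of 452 refits under other settings and none of 380 with a library left out turned a call to the opposite direction. The number of the 5 called moved by more than 1.5 times in these cases. In Glp1r conjugate liver it went from 3 to 0 with estimated depth as a term. In Glp1r conjugate fat the 1 call, Vnn1, was 0 with no filter, median-of-ratios scaling, quantile normalization, the replicate block, only the 2 groups compared, and depth as a term, and with array weights there were 2 calls. Array weights gave 1 call for Glp1rWnt1-/- fat, against 0, and 2 for Gipr conjugate fat, against 1. Over all genes, array weights called 732 and 3618 in these comparisons, and 5556 in Glp1r conjugate fat. With 1 library left out the numbers were 2 to 3 in Glp1r conjugate liver, 0 to 1 in Glp1r conjugate fat and 2 to 3 in GiprSyn-/- fat. The replicate block gave 4, 0, 2 and 5 liver calls, against 3, 0, 2 and 4, and moved no other fat count. Over all genes, in either direction, 1126 were called in Glp1r conjugate liver and 0 with depth as a term, 1160 in GiprSyn-/- liver with 717 under median-of-ratios scaling, 1967 with a common sum of FPKM and 3333 with array weights, and 486 in Gipr conjugate liver with 149 when only the 2 groups compared were fitted and 1333 with array weights. In Glp1r conjugate fat 430 were called, 166 under median-of-ratios scaling and 2610 without the B cell-rich libraries, and in GiprSyn-/- fat 1670, with 755 without those libraries. Without the higher library number series 977 were called in GiprSyn-/- fat, and 569 against 955 in Gipr conjugate fat. Pairs of genes varying together within liver groups numbered 7, and 5 to 8 under other settings. Depth limits Ly6d: by estimate its median was 10.4 fragments per library in Glp1r vehicle and in Glp1r conjugate fat and 30.5 in Glp1r conjugate liver.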

Other observations

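In adipose tissue of the Gipr line, 19 genes of the Ppara programme were tested (limma). Under the conjugate 4 rose and 2 fell, where 4.26% of all genes rose and 2.76% fell. In GiprSyn-/- fat 2 rose and 2 fell, where 6.61% of all genes rose and 5.67% fell. The medians of the 19 were -0.27 and -0.19, beside 0.11 and 0.09 over all genes. With median-of-ratios scaling 2 rose and 1 fell, and 1 rose and 3 fell.

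Among genes of fatty acid uptake, Fabp5, a fatty acid-binding protein, fell in Gipr-line fat from 490 ± 36.4 FPKM to 198 ± 43.3 FPKM under the conjugate (limma, adjusted p = 0.00503) and to 198 ± 71.8 FPKM in GiprSyn-/- (adjusted p = 0.00364), and Vldlr fell by 1.07 ± 0.24 in both (adjusted p = 0.0179 and 0.0131), both named after their values were seen. In the same 2 comparisons the changes of Cd36 did not pass.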
